A study of Mus musculus with 10 samples.

Results

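The 10 genes described here make or use microRNAs: Drosha, Dgcr8, Xpo5, Dicer1, Tarbp2, Ago1, Ago2, Ago3, Lin28a and Trim71. They were chosen by name, not by their values, and each was found once by its Ensembl identifier among the 55487 genes of the RNA-seq tables. The cells were E14, a mouse embryonic stem cell line, grown in medium with 15% FBS, LIF, a GSK inhibitor at 3 µM and a MEK1/2 inhibitor at 1 µM. The series holds 10 samples in 6 groups, and values come from the 3 samples of the RNA-seq group, which received no genetic change or further treatment. The samples of the R-loop groups (MapR, BisMapR and their controls) were not analysed here. The labels do not say whether the 3 replicates were separate cultures, so the spread between them may be technical, and with 1 group no condition could be compared.

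MicroRNAs are short RNAs that guide silencing of messenger RNAs. Their hairpin precursors are cut in the nucleus by the Microprocessor, formed by the nuclease DROSHA and the RNA-binding protein DGCR8, and are carried to the cytoplasm by exportin 5, the product of Xpo5. DICER1, with its partner TRBP (Tarbp2), removes the loop, and an Argonaute protein keeps one strand and uses its seed, bases 2 to 8, to find targets. LIN28A and TRIM71 belong to the same circuit in stem cells: LIN28A blocks maturation of the let-7 family, and both genes are known targets of let-7.

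Mature microRNAs known to act on some of these genes, or typical of pluripotent cells, show which letters a target must carry. They are given 5′ to 3′ from RefSeq (GRCm38.p6), with the seed in capitals. All 9 mature names of the let-7 and miR-98 group in that table have the same seed, so 2 of them stand for the group. The miR-294 and miR-302 families share another seed.
mmu-let-7a-5p: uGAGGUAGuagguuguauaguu
mmu-let-7g-5p: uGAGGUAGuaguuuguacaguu
mmu-miR-125b-5p: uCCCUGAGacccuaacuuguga
mmu-miR-103-3p: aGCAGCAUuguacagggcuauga
mmu-miR-294-3p: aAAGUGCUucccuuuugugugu
mmu-miR-302b-3p: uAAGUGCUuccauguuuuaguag

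Matches to these seeds were counted on the transcript strand in the longest annotated 3′ UTR of each gene (GENCODE vM21, GRCm38). The letters searched were CTACCTC for let-7, CTCAGGG for miR-125, ATGCTGC for miR-103 and miR-107 and AGCACTT for miR-294 and miR-302. The last 3 letters of the let-7 match are the first 3 of the miR-125 match, and no printed match overlaps another. Trim71 held 4 let-7 matches, each followed by an A, a form known to be bound better than the bare match. Among 21037 UTRs, 12 had at least 4 let-7 matches and 3 had at least 4 followed by an A. Lin28a held 2 such matches, a number reached by 32 UTRs. A match is a description of letters and not evidence of binding. Windows of 30 bases with the match in capitals are shown for some of the 28 matches found. They are the let-7 and miR-125 matches of Trim71 and Lin28a and the miR-103 and miR-107 match of Dicer1. All are on the minus strand. The miR-103 and miR-107 matches of other members are among those not printed.
Trim71 let-7, chr9:114512465-114512494: aacattgcctaagtcCTACCTCagcttaaa
Trim71 let-7, chr9:114512369-114512398: agtgataatttctatCTACCTCaactcttt
Trim71 let-7, chr9:114509040-114509069: tttagtatggattttCTACCTCaattttgg
Trim71 let-7, chr9:114509014-114509043: ttggcaaaaagttgtCTACCTCacgtcggc
Lin28a let-7, chr4:134005182-134005211: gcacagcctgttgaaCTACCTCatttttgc
Lin28a let-7, chr4:134004544-134004573: gagatcgccacaaacCTACCTCactgtgtt
Trim71 miR-125, chr9:114512552-114512581: caaagaagaaatcgtCTCAGGGatatttct
Lin28a miR-125, chr4:134005294-134005323: aggtacatgagcaatCTCAGGGataataag
Dicer1 miR-103 and miR-107, chr12:104690162-104690191: ctgatgcttcatgtaATGCTGCacttaggt

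Across the 10 genes, let-7 matches stood in 5 UTRs, against 9.02% of all UTRs, miR-103 and miR-107 matches in 7 against 11.3%, miR-125 matches in 4 against 13.1% and miR-294 and miR-302 matches in 2 against 14.7%. UTR length goes with these counts, but not in every member. Tarbp2, with 334 bases, held a let-7 match and a miR-103 and miR-107 match, where 2.88% and 2.93% of UTRs of similar length did. Ago1, with 4491 bases, held only a miR-103 and miR-107 match. At least 1 such match, with or without other motifs, stood in 30.4% of UTRs of similar length. The UTRs of Ago2 (11064 bases) and Ago3 (12742 bases) held 3 let-7 and 3 miR-294 and miR-302 matches respectively, where 46.2% of UTRs of a length similar to that of Ago2 held at least 1 let-7 match and 78.3% of those similar to Ago3 held a miR-294 and miR-302 match. For Trim71 (5512 bases) and Lin28a (2775 bases) the let-7 shares of UTRs of similar length were 29.9% and 14.7%. Those shares count UTRs with at least 1 match, whatever letter follows. At similar length, no share was computed for as many matches followed by an A as Trim71 and Lin28a held. Drosha, with 169 bases, and Xpo5, with 1327 bases, held none of the 4 motifs, which says only that these letters are not in those windows.

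**Figure D1:**
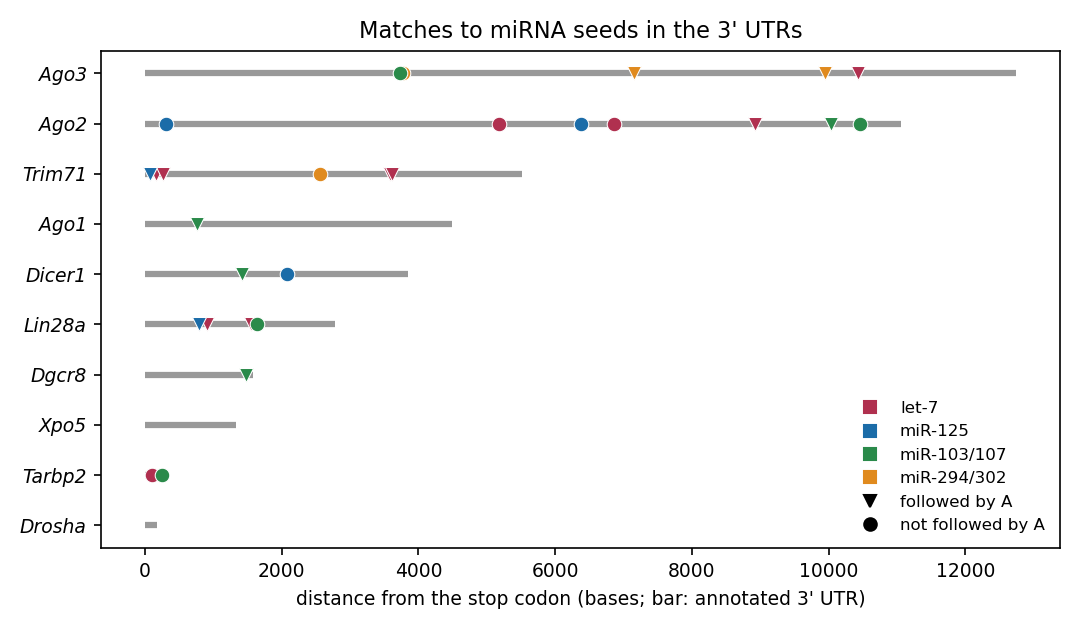
Matches to 4 microRNA seeds along the annotated 3′ UTRs of the 10 genes. The x axis is the distance from the stop codon in bases, grey bars are the UTRs, colours are seed families, and triangles mark matches followed by an A. Trim71 has 4 let-7 triangles in 2 close pairs, and the longest UTRs are those of Ago3 (12742 bases) and Ago2 (11064 bases).

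All 10 genes were expressed. Levels between genes are given as TPM, in which estimated reads are divided by transcript length and scaled to the same total in each library. Mean TPM ran from 3.58 ± 1.76 (SD, n = 3) for Ago3 to 14.2 ± 5.06 (SD, n = 3) for Dicer1. The median of the 10 was 3.31 ± 0.43 (SD, n = 3) in log2(TPM + 1), against 2.72 ± 0.29 (SD, n = 3) for the 9683 protein-coding genes with a mean TPM of at least 1. Only 44.1% of the 21974 protein-coding genes reached that mean.

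Replicates 1, 2 and 3 held 11420425, 6467405 and 5787357 estimated counts, of which 16844, 9192 and 5165 fell on the 10 genes. The lowest count of any member was 205, for Ago3 in replicate 3. Replicate 3 stood apart from the other 2: genes with long transcripts were lower in it, and it held 0.0892% of its counts in the 10 genes, against 0.147% and 0.142%. All 3 libraries held stem cell markers, with 6 of 6 listed genes above a mean TPM of 1 and a summed TPM of 433.8 to 580.9, and Nanog at 183 ± 29.9 TPM (SD, n = 3). Of the fibroblast list, Col3a1, Dcn and Lum had no counts in any library and only Thy1 exceeded a mean TPM of 1. No primitive endoderm, neural or mesoderm gene of the lists did.

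**Figure D2:**
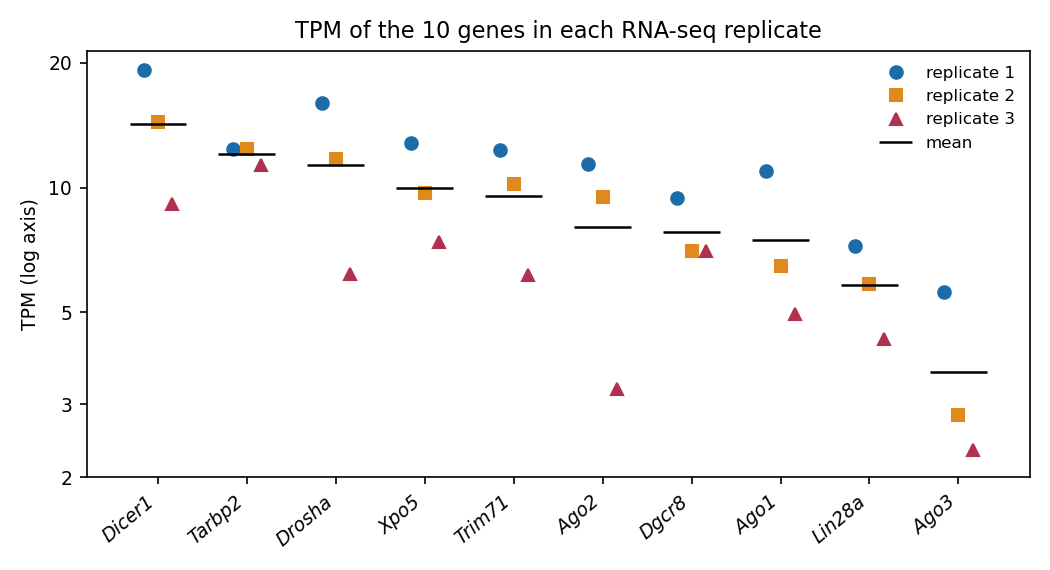
TPM (log axis) of each gene in the 3 RNA-seq libraries, ordered by mean. Points are single libraries and bars their mean. The triangle of replicate 3 is the lowest point in all 10 genes, for Dgcr8 only by 7.02 against 7.03, and the ranges of all neighbours along the order overlap. The share of all genes lowest in replicate 3 in TPM was not computed. In TMM-scaled CPM, used below, replicate 3 was not the lowest for Dgcr8 (62.9, 58.6 and 59.3) or Tarbp2 (33.5, 43.2 and 46.5).

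Drosha exceeded Dgcr8 in 2 of 3 libraries. Drosha (ENSMUSG00000022191, chromosome 15, 12824815 to 12935291, plus strand), the nuclease that makes the first cut, had 16.03, 11.74 and 6.2 TPM in replicates 1, 2 and 3, a mean of 11.3 ± 4.93 (SD, n = 3). Dgcr8 (ENSMUSG00000022718, chromosome 16, 18253948 to 18289246, minus strand), which holds the hairpin for it, had 9.45, 7.03 and 7.02 TPM, a mean of 7.83 ± 1.40 (SD, n = 3). Dgcr8 stayed level between replicates 2 and 3 while Drosha was lowest in replicate 3, so the groups of values overlapped.

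The ratio of Dgcr8 to Drosha was 0.59, 0.599 and 1.13 in TPM, or -0.44 ± 0.54 (SD, n = 3) in log2, which is within 1 SD of equal levels. In estimated reads per kilobase of the longest transcript, an alternative chosen after seeing the data, it was 0.47, 0.453 and 0.68, below 1 in all 3 libraries. The scales differ in the length used, and the length listed for Dgcr8 was 3069, 3062 and 2496 nt in replicates 1, 2 and 3 against a longest transcript of 4320 nt. Dgcr8 overlaps Trmt2a on the opposite strand over 825 bp. Both genes had whole counts in every library, with Trmt2a at 388, 228 and 253. The strand setting of the counting is not stated, and whether reads there were given to the right gene was not tested.

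Xpo5 carries precursor hairpins out of the nucleus. Xpo5 (ENSMUSG00000067150, chromosome 17, 46202782 to 46243598, plus strand) had 12.8, 9.73 and 7.38 TPM, a mean of 9.97 ± 2.72 (SD, n = 3). It was below Drosha in replicates 1 and 2 and above it in replicate 3, at a ratio of 0.939 ± 0.218 (SD, n = 3). Its listed length was at least 94.6% of the longest transcript, the highest minimum among members with several lengths listed.

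Dicer1 had the highest mean TPM of the 10, and Tarbp2 the second. Dicer1 (ENSMUSG00000041415, chromosome 12, 104687742 to 104751952, minus strand), the cytoplasmic nuclease, had 19.24, 14.38 and 9.12 TPM. Tarbp2 (ENSMUSG00000023051, chromosome 15, 102518192 to 102523676, plus strand), the Dicer partner, had 12.42, 12.36 and 11.32 TPM, a mean of 12.03 ± 0.618 (SD, n = 3). In TPM over all genes, Tarbp2 had the smallest SD of the 10 relative to its mean, 5.14%. This did not hold in CPM (counts without length scaling). Nor did it hold in TPM over protein-coding genes alone, with Tarbp2 at 62.0 ± 6.72 and Dgcr8 at 39.9 ± 1.84 (SD, n = 3). Dicer1 fell below Tarbp2 in replicate 3 alone.

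The log2 ratio of Tarbp2 to Dicer1 was -0.18 ± 0.47 (SD, n = 3), so the 2 genes did not differ beyond their spread, and without replicate 1 the sign of the ratio turned to 0.05. By reads without length scaling (CPM, each count as a share of its library total), Tarbp2 was the lowest of the 10 at 40.7 ± 4.95 (SD, n = 3), with Dicer1 at 171.7 ± 45.2 (SD, n = 3). Prkra, which encodes PACT, the other double-stranded RNA-binding partner of Dicer, had 2.71 ± 0.402 TPM (SD, n = 3), or 0.226 ± 0.0319 (SD, n = 3) of Tarbp2 in TPM and 0.463 ± 0.0743 (SD, n = 3) per kilobase of the longest transcript. Dicer1 had listed lengths of 4605, 4667 and 4149 nt against a longest transcript of 9851 nt, and per kilobase of that transcript it was 0.642 ± 0.0143 (SD, n = 3) of Drosha rather than 1.30 ± 0.15 (SD, n = 3) as in TPM. The order of Dicer1 and Drosha therefore turned with the length used. A small part of the Tarbp2 count was divided with Gm18584, a processed pseudogene on chromosome 6: its 4.79, 2.14 and 2.25 estimated counts and those of Tarbp2 added up to 405, 289 and 249 whole reads (within 0.011), and 723 runs of 50 bases stood in transcripts of both.

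Of the Argonautes, Ago1 and Ago2 had similar mean TPM, Ago3 had less, and Ago4 was nearly absent. Ago2 (ENSMUSG00000036698, chromosome 15, 73095844 to 73184935, minus strand), the Argonaute of this group known for slicing its target, had 11.38, 9.49 and 3.26 TPM, a mean of 8.04 ± 4.25 (SD, n = 3). Ago1 (ENSMUSG00000041530, chromosome 4, 126435012 to 126468583, minus strand) had 10.97, 6.47 and 4.97 TPM, a mean of 7.47 ± 3.12 (SD, n = 3). Ago3 (ENSMUSG00000028842, chromosome 4, 126331704 to 126429556, minus strand) had 5.59, 2.83 and 2.33 TPM.

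Ago3 was below Ago1 in every library, at a ratio of Ago1 to Ago3 of 2.13 ± 0.162 (SD, n = 3) in TPM. Per kilobase of the longest transcript the ratio was 5.42 ± 0.349 (SD, n = 3), so its size depends on the length used. Ago2 exceeded Ago1 in replicates 1 and 2 and fell below it in replicate 3, so their order did not hold across libraries. Ago4 (ENSMUSG00000042500, chromosome 4, 126489541 to 126533472), in the same cluster with Ago1 and Ago3, had 18, 7 and 8 counts and 0.0767 ± 0.0208 TPM (SD, n = 3). The exact Poisson 95% interval of the 18 counts ran from 10.7 to 28.4, which covers counting error only, so Ago4 was above the floor of 3 counts in that library.

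Ago2 contributed 40.6%, 50.3% and 30.7% of the summed TPM of Ago1 to Ago4 in replicates 1, 2 and 3, a mean of 40.5% ± 9.84 (SD, n = 3). Ago1 gave 40.1% ± 6.27 (SD, n = 3), Ago3 19.0% ± 3.56 (SD, n = 3) and Ago4 0.444% ± 0.186 (SD, n = 3). In CPM, which gives long transcripts more weight, the share of Ago2 was 60.8% ± 9.80 (SD, n = 3). Per kilobase of the longest transcript it was 49.2% ± 9.94 (SD, n = 3) and that of Ago3 fell to 7.86% ± 1.76 (SD, n = 3). The Ago3 value depends most on the choice, because its listed length was 28.1% to 35.7% of its longest transcript of 15595 nt.

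**Figure D3:**
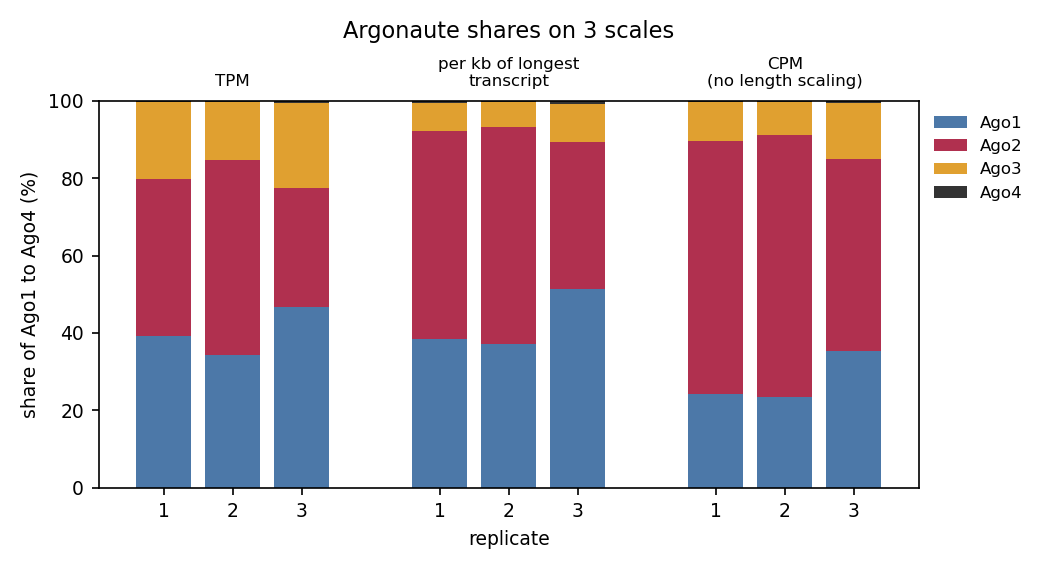
Share (%) of each Argonaute in the sum of Ago1 to Ago4, by replicate, in TPM, per kilobase of the longest transcript and in CPM. Bars are stacked to 100%. The share of Ago2 is lowest in replicate 3 on each scale (30.7% in TPM), and Ago4 is a thin line at the top.

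Reads of Ago1 and Ago3 were divided between the 2 genes. Their estimated counts were fractional in every library (1544.98 and 643.02 in replicate 1), and the sums were 2188, 1077 and 702 whole reads, within 0.011. The annotated transcripts of the pair share 121 runs of 50 bases, against 4 for Ago1 with Ago2 and 0 for Ago2 with Ago3. The Ago1 to Ago3 ratio is therefore uncertain also as a value of paralogs, while the sum of the pair is not affected by the division. The 7 members other than Ago1, Ago3 and Tarbp2 had whole counts in every library. The genes are neighbours, with 5455 bp between Ago3 and Ago1 and 20957 bp between Ago1 and Ago4.

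Trim71 and Lin28a, which link the machinery to let-7, were both expressed, and Trim71 was higher in each library. Trim71 (ENSMUSG00000079259, chromosome 9, 114507133 to 114564369, minus strand), a RING-type protein with an RNA-binding NHL domain, had 12.3, 10.22 and 6.15 TPM, a mean of 9.56 ± 3.13 (SD, n = 3). Lin28a (ENSMUSG00000050966, chromosome 4, 134003330 to 134018841, minus strand) had 7.24, 5.87 and 4.31 TPM, a mean of 5.81 ± 1.47 (SD, n = 3). The ratio of Lin28a to Trim71 was 0.589, 0.574 and 0.701, and in log2 -0.69 ± 0.16 (SD, n = 3), with the same sign per kilobase of the longest transcript. Both have a listed length equal to their longest transcript in every library.

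The paralog Lin28b, which acts on the same let-7 precursors, was lower. Lin28b had 1.49, 1.07 and 0.72 TPM, and Lin28a exceeded it by 2.44 ± 0.15 (SD, n = 3) in log2, a ratio of 4.86, 5.49 and 5.99. The enzymes that add uridines to and degrade let-7 precursors held by LIN28A were all expressed, Tut4 at 8.65 ± 3.67, Tut7 at 6.33 ± 1.05 and Dis3l2 at 3.72 ± 0.965 TPM (SD, n = 3). The 7 listed let-7 targets other than Lin28b ranged from 3.03 ± 1.06 TPM (SD, n = 3) for Hmga2 to 19.9 ± 8.39 TPM (SD, n = 3) for Igf2bp1.

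The order by mean TPM was Dicer1, Tarbp2, Drosha, Xpo5, Trim71, Ago2, Dgcr8, Ago1, Lin28a and Ago3. The ranges of all 9 neighbouring pairs in it overlapped over the 3 replicates. In 3 of those 9 pairs the higher gene was higher in every library. For 2 of these the mean log2 ratio within libraries exceeded its SD, at 0.77 ± 0.35 (SD, n = 3) for Lin28a over Ago3 and 0.32 ± 0.25 (SD, n = 3) for Ago1 over Lin28a. For Trim71 over Ago2 it did not, at 0.38 ± 0.47 (SD, n = 3), nor did it in the 6 pairs whose order changed between libraries. Of all 45 pairs, 34 kept the same order in every library and 11 had ranges apart, 6 of which involved Ago3. Ago3 was last in each library, and Dicer1 was first in replicates 1 and 2 and second after Tarbp2 in replicate 3. With 3 libraries an exact sign-flip test cannot go below 0.25, so no p-value is given for the order.

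The place of the genes among expressed protein-coding genes depended on which genes count as expressed. Their median percentile was 65.3 ± 3.94 (SD, n = 3) among genes whose TPM averaged 1 or more. It was 36.6 ± 7.15 (SD, n = 3), below the middle, among those averaging 5 or more, a limit chosen after seeing the data. Of the 10 members, 9 reached that second limit, and Ago3, at a mean TPM of 3.58, did not. With the first limit the genes ran from Ago3 at 32.4 to Dicer1 at 77.2 on average. Lin28a stayed near the middle, at 50.7, 51.7 and 49.3. Ago2 dropped from 66.2 and 67.3 in replicates 1 and 2 to 39.2 in replicate 3.

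Ago2 was the 1 member whose counts spread more between replicates than the dispersion trend allows at its abundance (goodness of fit in edgeR, adjusted p = 0.0107 over 12577 genes). Such calls were made for 1.84% of all genes tested. The count of members called was also 1 with no filter, where 1.19% of genes were called, and with a common dispersion, where 1.86% were. Ago2 had 346.5, 341.1 and 131.5 TMM-scaled CPM in replicates 1, 2 and 3, so replicate 3 was 2.62-fold lower than the mean of the other 2. The remaining 9 members had adjusted p = 1.00 by edgeR. For Ago2 the call held without replicate 1 (adjusted p = 0.0479 by edgeR), where 0.709% of genes were called. It was lost without replicate 2 (adjusted p = 0.125 by edgeR), where 0.474% were called, and without replicate 3 (adjusted p = 0.999 by edgeR), where 0.683% were.

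Replicate 3 was lower than the mean of replicates 1 and 2 in 9 of 10 members, against 49.6% of all genes tested, a share not matched for length, with Tarbp2 the exception. The median log2 difference was -0.35 in the members and 0.00 over all genes tested. Long genes were lower in replicate 3 in general: with genes averaging 100 counts or more split by length into deciles, the median difference went from 0.36 for the shortest decile to -0.23 for the longest. Ago2 was at -1.39, and 19 of the 830 genes of its decile, itself included, were at or below that. The decile spans listed lengths of 4970 to 123179 nt, and Ago2 averaged 12558 nt. This count was not narrowed to genes closer to Ago2 in length. Trim71, also in that decile, lay at -0.38, Ago1 at -0.40, and Drosha and Dicer1, a decile lower, at -0.59 and -0.54. Dgcr8, Xpo5 and Lin28a lay at -0.03, -0.09 and -0.10, near the medians of their deciles (-0.04, -0.14 and -0.10). Ago3 lay at -0.33 (decile median -0.14) and Tarbp2 at 0.29 (decile median 0.17). After a smooth correction for length, an alternative chosen after seeing the data, Ago2 still passed (adjusted p = 0.0473 by edgeR), where 1.53% of genes were called. Ago2 overlaps Chrac1 on the opposite strand over 1711 bp, with Chrac1 at 144, 79 and 66 counts.

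**Figure D4:**
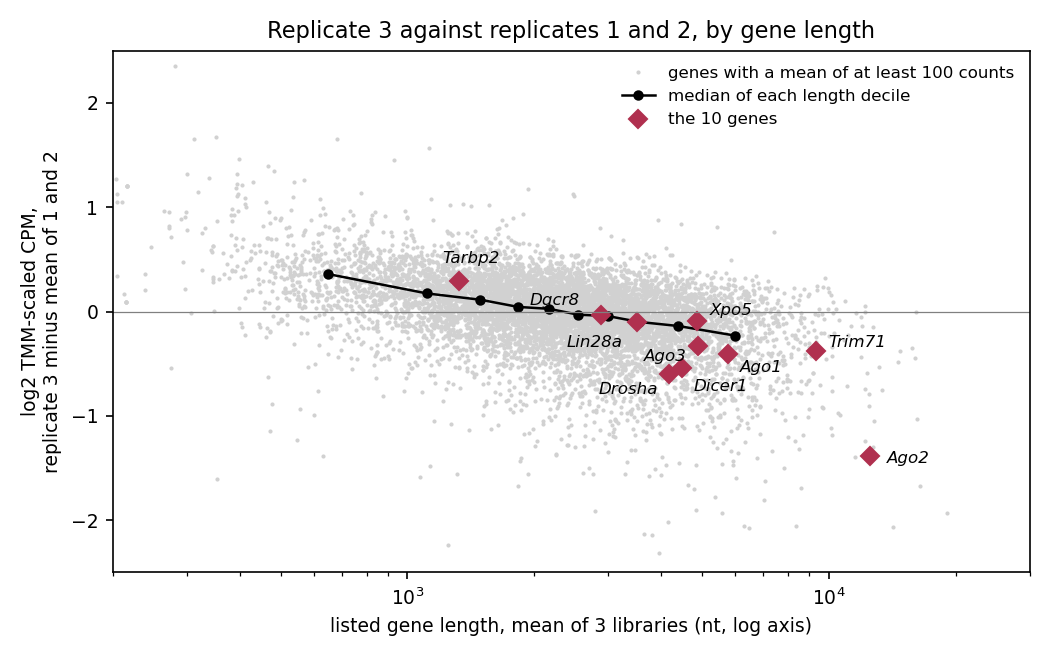
Difference of replicate 3 from the mean of replicates 1 and 2 (log2 TMM-scaled CPM) against listed gene length (nt, log axis). Grey points are genes averaging 100 counts or more, black circles the median of each length decile and diamonds the 10 genes. Medians run from 0.36 to -0.23, and Ago2 lies at -1.39.

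The genes that work with the 10 were mostly expressed: 31 of 35 partners had a mean TPM of at least 1. None of the 32 partners tested passed the same edgeR test after adjustment, where 1.84% of all genes did, and 2 of the 32 had an unadjusted p under 0.05, where 875 of all 12577 genes did. The nearest was Dcp1a, a decapping activator, at adjusted p = 0.0878 and 8.88, 5.71 and 2.71 TPM. Pabpc1, the cytoplasmic poly(A)-binding protein, had 365.4, 291.1 and 107.1 TPM (adjusted p = 0.204 by edgeR). In simulated data the test found only 2 of 50 increases of 2-fold, so differences of about that size can be missed. Replicate 3 was lower than the mean of replicates 1 and 2 in 26 of the 32 partners tested, against 49.6% of all genes tested. That share was not matched for length.

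All 5 nuclear cofactors were above a mean TPM of 1, from Ncbp2 at 3.27 ± 0.653 to Ddx5 at 91.6 ± 17.5 TPM (SD, n = 3). DDX5 and DDX17, helicases that assist the Microprocessor on some hairpins, both exceeded Drosha and Dgcr8 in each library, Ddx17 with 49.71, 37.82 and 26.62 TPM. Ran, the GTPase that exportin 5 needs, had 51.24, 45.72 and 61.81 TPM and was highest in replicate 3. Adar, an enzyme that edits double-stranded RNA, had 4.71 ± 2.04 TPM (SD, n = 3).

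All 12 silencing effectors were above a mean TPM of 1, with a median of 13.5. The GW182 proteins, which link Argonaute to the deadenylases, had 8.19 ± 2.59 (Tnrc6a), 4.98 ± 0.776 (Tnrc6b) and 3.63 ± 1.33 (Tnrc6c) TPM (SD, n = 3). Cnot1, the scaffold of the CCR4-NOT deadenylase, had 148.3 ± 36.3 TPM (SD, n = 3), above every one of the 10 members in each library. The germline relatives of the Argonautes, which bind piRNAs, were below a mean TPM of 1, with Piwil2 at 0.483 ± 0.0802, Piwil1 at 0.183 ± 0.0493 and Piwil4 at 0.0233 ± 0.0208 TPM (SD, n = 3).

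**Figure D5:**
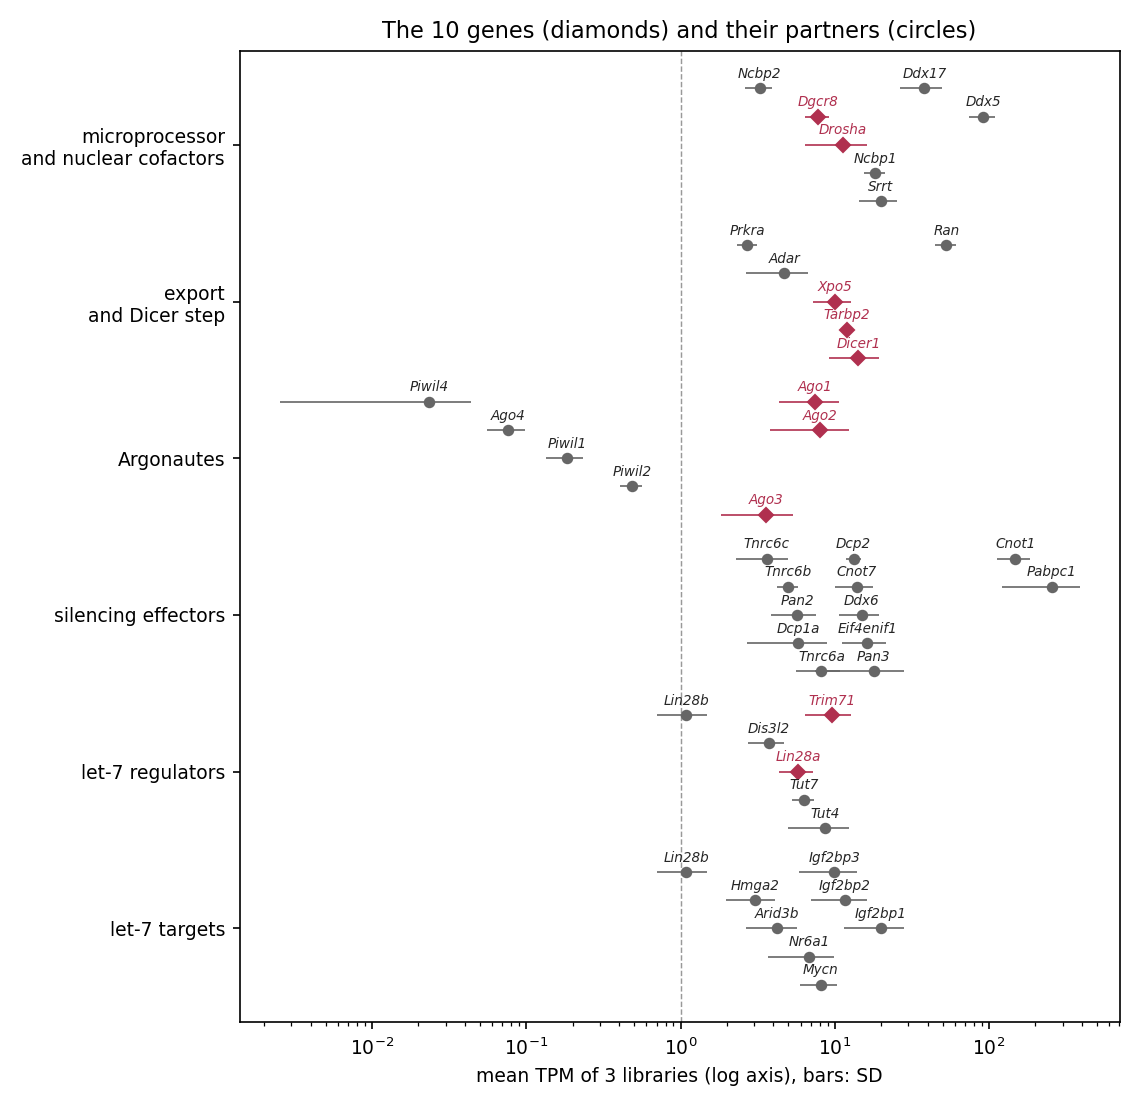
Mean TPM (log axis, bars SD over 3 libraries) of the 10 genes (diamonds) and their partners (circles) by pathway step. The dashed line marks a TPM of 1; Ago4, Piwil1, Piwil2 and Piwil4 are the 4 partners left of it.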

How the data were processed

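RNA-seq of 3 E14 samples was read from 1 table each. Per the labels' protocols, ribosomal RNA was removed from total RNA before strand-specific library preparation. Per the file headers, the authors deposited for each gene an estimated count (expected count) without normalization, a TPM scaled by effective length, the lengths used and an FPKM that was not used. STAR, RSEM and mm10 stand in the submitters' processing notes, without versions or roles; the annotation release and strand setting are not given in the sources used here. Gene names and coordinates came from GENCODE vM21 (GRCm38, the build also called mm10), which matched 55227 of 55487 identifiers; 2 of the 7 Ago1 transcripts in the tables are not in that release, so its longest transcript is the longest of the other 5.

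Estimated counts were rounded for edgeR 4.0.16 (R 4.3.3). Each gene's deviance about its mean under the trended dispersion was compared with a chi-square, after TMM and filterByExpr, with Benjamini-Hochberg adjustment over all genes tested. Tested on simulated data with 50 genes changed per fold, it found 2 of the 2-fold, 36 of the 4-fold and all 50 of the 8-fold changes. The test made 4 false calls among the unchanged genes, with 12362 genes tested in all, changed ones included. The simulated counts followed the fitted dispersion, without the length trend of replicate 3. Only genes averaging at least 50 counts were changed, each upward and in a single library. A decrease such as that of Ago2 was therefore not simulated. CPM is a count scaled to the library total. UTR matches were read from GENCODE transcripts; 28 of 28 windows were identical in the GRCm38.p6 genome. A UTR of similar length had 0.8 to 1.25 times the length. The members were given by name, and the lists were written with earlier results of these data known. Genes named are the members and some genes of 6 partner lists and 5 marker lists, each list being summarised by its counts. Which list genes to name was chosen after their values were seen. Overlapping genes, and the pseudogene sharing Tarbp2 reads, were named after their values were seen. The filter, dispersion, pseudocount, length scaling, TPM denominator and replicates were varied, and size factors from DESeq2 1.42.0 replaced TMM.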

Additional observations from a re-analysis of the deposited data

How the results depend on the processing

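Over 12 summary results and 75 alternatives, 52 stayed within the spread or the side of the threshold, and of 120 alternatives for single genes 98 did. CPM in place of TPM moved the median log2 value of the members to 6.86, their median percentile to 87.7, the span between lowest and highest from 1.84 to 2.88, the share of Ago2 to 60.8%, and the log2 ratios of Dgcr8 to Drosha to -1.01, Tarbp2 to Dicer1 to -2.05, Lin28a to Lin28b to 1.99 and Lin28a to Trim71 to -2.14; CPM carries no length scaling by construction. TPM over protein-coding genes alone gave a median of 5.54, a percentile of 72.5 and a span of 2.07. TPM over genes of effective length of at least 100 nt gave a median of 4.66 and a percentile of 70.3. A smaller denominator raises every TPM of a library by the same factor. It keeps the order of genes within a library, so the percentile moves only with the set of genes ranked. A pseudocount of 0.1 gave a span of 2.10. Among genes with a mean TPM of at least 5 the percentile was 36.6. Per kilobase of the longest transcript the percentile was 70.9 and the log2 ratio of Lin28a to Lin28b 2.61. That scaling, the percentile at a TPM of 5 and the length correction were chosen after seeing the data.

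Without 1 replicate at a time, the log2 ratio of Tarbp2 to Dicer1 ran from -0.42 to 0.0467, turning sign without replicate 1; the count of varying members ran from 0 to 1 and that of all varying genes from 63 to 93, below the 232 of the full fit, where fewer samples were fitted. The call on Ago2 was lost without replicates 2 and 3. No paired analysis was possible because the tables are of 1 group, so replicate numbers pair nothing. Depth limits the low end: 3 counts are 0.518 CPM in replicate 3, against 8 counts or fewer for Ago4, Piwil1 and Piwil4 there.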

Other observations

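The hairpin genes that the machinery acts on were almost unread in these libraries. All 11 annotated let-7 hairpin genes and all 4 of the miR-302 group had 0 counts in every library, as did 8 of 9 of the miR-290 to miR-295 group and 4 of 6 of the miR-17 to miR-92 group. The longest effective length listed for the 30 hairpin genes was 5.18 nt, so a count of 0 here says nothing about the level of the microRNAs. Of all 2207 annotated miRNA genes, 2150 had 0 counts in every library. The host transcript of the miR-17 to miR-92 group, Mir17hg, had 277, 168 and 134 counts and 2.57 ± 0.467 TPM (SD, n = 3), below the TPM of all 10 members in each library.

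Annotated hairpin genes also lie within 3 of the members on the same strand: Gm47288 in Drosha, Mir1306 and Gm24572 in Dgcr8, and Mir693 in Xpo5. Each had 0 counts in every library. The Dgcr8 transcript is known to carry hairpins that the Microprocessor itself cuts.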
